A study of Homo sapiens with 8 samples.

Results

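The immunoglobulin lambda (IGL) locus was examined for binding of 7 proteins by chromatin immunoprecipitation followed by sequencing (ChIP-seq) in 697 cells. These are an established cell line grown out of a human leukaemia of the pre-B stage. The locus holds the variable, joining and constant gene segments of the lambda light chain, among them IGLC1, IGLC2 and IGLC3, which encode constant domains. Its members are peaks, stretches where an antibody's library held more sequence tags than the input. They were chosen by their called positions: every peak overlapping chromosome 22 from 22380000 to 23270000 (build hg19), leaving out the stretch from 22590000 to 22610000 around VPREB1, a surrogate light chain gene. Peaks below 23200000 form the variable part, and those above it the joining (J) and constant part. The rule took 241 of the 159806 peaks in the 7 lists. Where peaks of different lists overlapped by at least 1 bp they were merged, which gave 83 regions of 74123 in all, 71 in the variable part and 12 in the J and constant part.

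The groups were OCAB, OCT2, IKAROS, AIOLOS, MTA2, HDAC2 and Mi2, named for the antibody, each with 1 library, and the input, which is DNA sequenced with no immunoprecipitation. All came from 697 cells grown in medium with 10% serum, with no treatment named in the labels. Library depth was between 10.9 M tags (HDAC2) and 23.4 M (IKAROS). There was no replicate of any antibody, so no p-value is given; the intervals below cover counting error only, and regions are not independent replicates.

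In a B cell precursor, recombination joins 1 variable segment to 1 joining segment, and the light chain made from it replaces the surrogate light chain in the receptor. Promoters of immunoglobulin variable genes carry an octamer sequence, which OCT2 and the related OCT1 bind and through which the B-cell coactivator OCAB is recruited. IKAROS and AIOLOS are zinc-finger factors of the lymphoid lineage that promote light chain recombination in mouse pre-B cells. MTA2, HDAC2 (a histone deacetylase) and Mi2 (an ATP-driven remodeller) are subunits of the NuRD complex. In the RefSeq annotation at hand, the locus comprises 38 variable segments, 36 variable pseudogenes, 7 joining segments, 4 constant regions and 3 constant pseudogenes. By its gene order, ZNF280B, ZNF280A and PRAME, which are not immunoglobulin genes, lie among the variable genes, and IGLL5 stands before the first joining segment. Its build differs from that of the peaks. Peaks were therefore not tied to genes, and the values below belong to positions and not to IGLC1, IGLC2 or IGLC3 singly.

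OCAB stood out for the share of its peaks that fell in the locus, though IKAROS, AIOLOS and MTA2 had more peaks there. The locus held 33 of the 4440 OCAB peaks, or 0.743% of the list (95% Wilson interval 0.530 to 1.04). For OCT2 it was 20 peaks of 8129 (0.246%, interval 0.159 to 0.380). HDAC2 had 28 of its 16125 peaks here (0.174%, interval 0.120 to 0.251), and MTA2 had 43 of its 28760 (0.150%, interval 0.111 to 0.201). For AIOLOS it was 49 of 38101 (0.129%, 0.0973 to 0.170), for IKAROS 64 of 53948 (0.119%, 0.0929 to 0.151), and for Mi2 4 of 10303 (0.0388%, 0.0151 to 0.0998). The OCAB share was the highest of the shares listed here. These counts are a description, and the proteins were not tested against each other. Per length, OCAB had 37.9 peaks per Mb in the locus and 1.51 per Mb over chromosomes 1 to 22 and X, a ratio of 25.2, while the ratio was 8.33 for OCT2, 5.89 for HDAC2, 5.07 for MTA2, 4.36 for AIOLOS, 4.02 for IKAROS and 1.32 for Mi2. Chromosome 22 as a whole is dense in peaks: set against the rest of that chromosome, the ratios were 12.3 for OCAB, 4.27 for OCT2 and 0.668 for Mi2. Merged regions numbered 95.4 per Mb in the locus, which was 3.80 times the density over all chromosomes and 1.93 times that over the rest of chromosome 22.

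**Figure D1:**
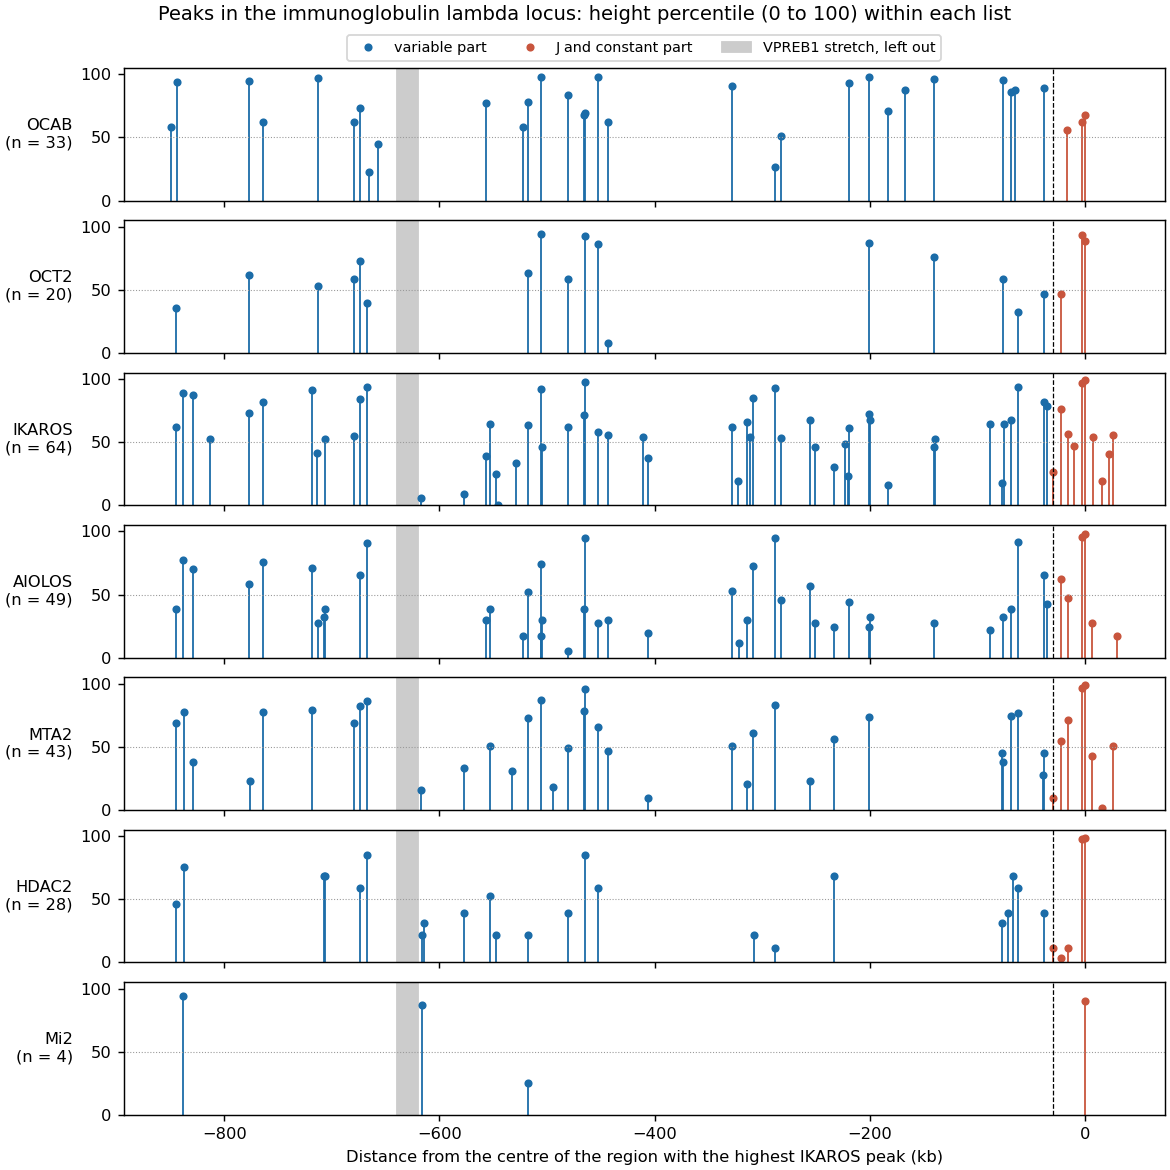
Each of the 241 peaks is drawn by its distance in kb from the centre of the region with the highest IKAROS peak (x axis) and by its height percentile within its own list (y axis, 0 to 100, the dotted line at 50 being the list median). Blue marks the variable part and red the J and constant part; the dashed line is the boundary between them and grey the VPREB1 stretch that was left out. OCAB peaks are spread along the variable part and 30 of 33 stand above the line, while the highest IKAROS, AIOLOS, MTA2 and HDAC2 peaks stand at 0 kb.

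Read as shares of merged regions, OCAB was present in 39.8% of the 83 lambda regions (29.9 to 50.5), against 5.95% of the 74040 regions outside the locus. The difference was 33.8 percentage points (Newcombe interval 24.0 to 44.6). OCT2 was present in 24.1% of lambda regions (16.2 to 34.3) and in 10.9% of those outside, a difference of 13.2 points (5.22 to 23.4). MTA2 was present in 51.8% (41.2 to 62.2), against 38.8% outside (13.05 points, 2.45 to 23.5). On the rest of chromosome 22 the MTA2 share was 44.0%, which is 7.80 points lower and within the lambda interval. HDAC2 was present in 33.7% (24.5 to 44.4), against 21.7% outside (12.0 points, 2.74 to 22.7). On the rest of chromosome 22 the HDAC2 share was 24.6%, which is 9.10 points lower and just inside the lambda interval. With at least 8-fold over input in every list the difference from all regions outside was 3.71 points. With a p-value limit of 1e-10 it was 1.64 points, and 9 of the 28 HDAC2 peaks were left. IKAROS was found in 77.1% of lambda regions and 72.8% of those outside, and AIOLOS in 59.0% and 51.4%; the intervals of both differences, from -5.77 to 12.1 points and from -3.09 to 17.6 points, take in 0. Mi2 was the only protein with a lower share in the locus, 4.82% (1.89 to 11.7) against 13.9% outside, a difference of -9.09 points (-12.0 to -2.16).

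**Figure D2:**
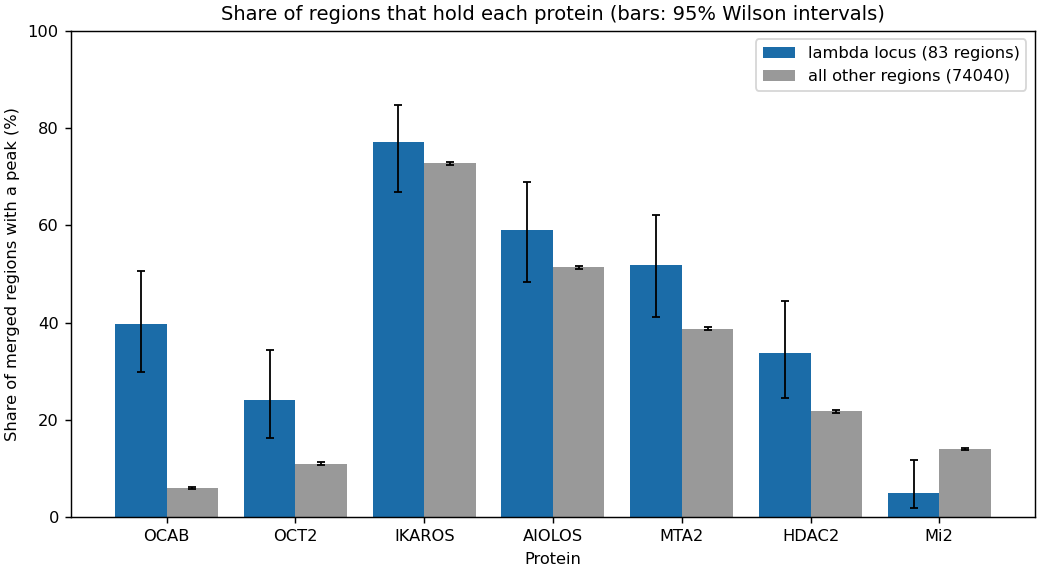
Bars give the percentage of merged regions that hold a peak of each protein, for the 83 lambda regions (blue) and the 74040 regions outside (grey), with 95% Wilson intervals. The gap is widest for OCAB, 39.8% against 5.95%, and Mi2 alone is lower in the locus.

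Regions of the locus were often shared by several proteins. Of the 83, 44 (53.0%) held 3 or more proteins, against 31.9% of regions outside. IKAROS with AIOLOS was found in 54.2% of lambda regions and in 44.4% of those outside (difference 9.80 points, -0.873 to 20.1). OCAB with OCT2 was found in 20.5%, against 2.51% outside (18.0 points, 10.7 to 27.9). OCAB with MTA2, the pair named in the series title, was found in 24.1%, against 3.07% outside (21.03 points, 13.1 to 31.2). IKAROS alone accounted for 10 regions, or 12.05%, against 22% outside. OCAB alone accounted for 6 regions, or 7.23%, against 1.62% outside. With an overlap of at least 1 bp required, all 3 NuRD subunits were found in 2 regions, or 2.41%, against 3.92% outside.

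Since a pair with OCAB needs an OCAB peak, the shares were also taken within the OCAB regions. Among the 33 lambda regions with OCAB, 51.5% held OCT2 (35.2 to 67.5), against 42.2% of OCAB regions outside. MTA2 was present in 60.6% (43.7 to 75.3) of them, against 51.6% outside, and IKAROS in 78.8% (62.3 to 89.3), against 62.9% outside. HDAC2 was present in 30.3% (17.4 to 47.3), against 39% outside. The intervals of these 4 differences all take in 0. AIOLOS was present in 75.8% of the lambda OCAB regions (59.0 to 87.2), against 56.8% outside, and the interval of that difference (18.98 points, 2.14 to 30.5) does not. On the rest of chromosome 22 AIOLOS was present in 66.35% of OCAB regions, which is within the lambda interval. Taken from the other side, 17 of the 20 lambda regions with OCT2 also held OCAB, or 85.0% (64.0 to 94.8), against 22.9% of OCT2 regions outside. Of the 43 lambda regions with MTA2, 46.5% (32.5 to 61.1) held OCAB, against 7.92% outside. In the kappa light chain locus 4 of 6 OCT2 regions and 3 of 6 MTA2 regions held OCAB. The intervals of the differences, from -13.3 to 56.3 points and from -37.7 to 31.0 points, take in 0 and are too wide to say whether the loci differ. In the heavy chain locus these shares were 33.3% and 11.1%. They lay below those of lambda by 51.7 points (21.7 to 70.5) and 35.4 points (16.7 to 51.3). Among OCAB regions, IKAROS was more frequent in lambda than in kappa by 35.0 points (6.65 to 58.2). For AIOLOS it was 38.3 points (9.09 to 60.4) and for HDAC2 30.3 points (7.02 to 47.3). The OCT2 difference, 26.5 points (-2.91 to 48.3), takes in 0.

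Peak height, given as tags per 10 M tags of the library, was not used to choose the peaks. Because heights of different antibodies are not on 1 scale, each peak was placed by its percentile within its own list, 50 being the median of the list. OCAB heights in the locus ran from 11.4 to 113.4 with a median of 26.2, against a median of 16.0 for OCAB peaks outside. Their median percentile was 77.4 (95% binomial interval of the median 62.4 to 88.8); 30 of 33 stood above the list median and 10 above percentile 90. In fold over input the median was 21.9 in the locus and 12.3 outside. The highest OCAB peak ranked 78 among the 4440. Of the 33 peaks, 29 were among the 2000 highest of the OCAB list.

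The other proteins stood nearer the middle of their lists, apart from Mi2 with a median percentile of 88.5 from 4 peaks. The median percentile was 60.2 for OCT2 (47.0 to 86.6), 57.5 for IKAROS (52.4 to 64.7), 54.7 for MTA2 (44.8 to 72.5) and 42.5 for HDAC2 (31.1 to 68.1). AIOLOS peaks stood at a median percentile of 38.5 (29.6 to 53.04), with a median height of 19.3 in the locus and 23.7 outside. Ranked by fold over input instead of height, the OCT2 median percentile was 43.7, below the middle of its list, and the OCAB median percentile was 74.3. The median input signal in OCT2 peaks was 4.3 tags in the locus and 2.6 outside, and in OCAB peaks 3.3 and 2.5; the part of the input in these ranks was not tested.

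**Figure D3:**
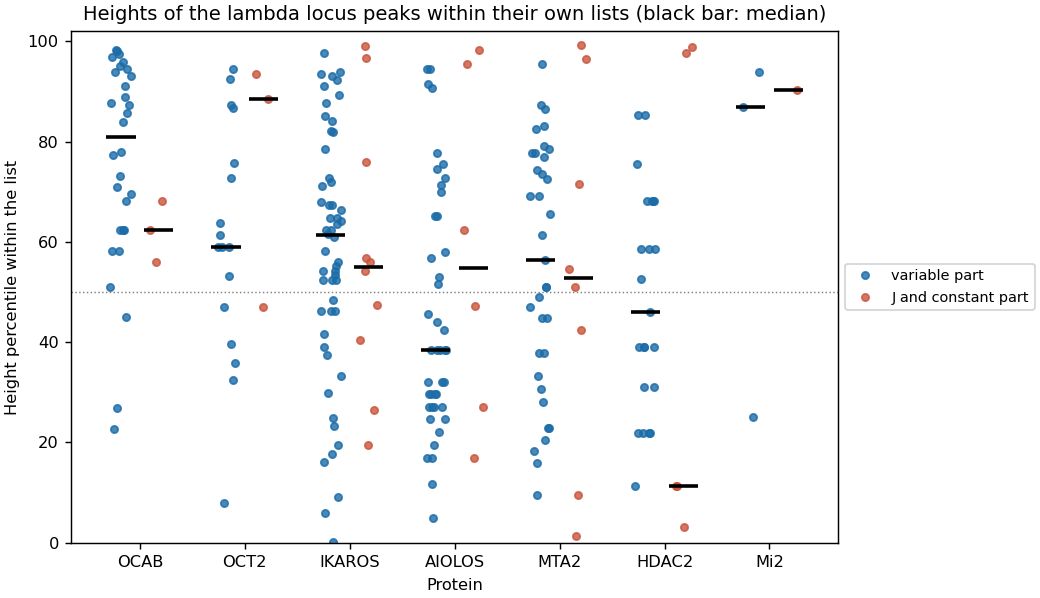
Points are the peaks of the locus by protein (x axis) and height percentile within their own list (y axis); blue is the variable part, red the J and constant part, black bars are medians and the dotted line is the list median. OCAB in the variable part has a median of 80.9, and AIOLOS in the variable part one of 38.5.

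The variable part held 30 of the 33 OCAB peaks, and they lay along its whole length. Over the whole window, from 22380000, the successive stretches of 100 kb held 4, 5, 1, 7, 1, 3, 4, 4 and 4 OCAB peaks. The last stretch is cut at the end of the window, and 3 of its 4 OCAB peaks belong to the J and constant part. The third contains the left-out VPREB1 stretch. The median gap between neighbouring OCAB peaks was 15291 bp. The longest, 115300 bp, ran from 22786292 to 22901593, and the next, 99773 bp, from 22573089 to 22672863 across the VPREB1 stretch. Merged regions of any protein were missing from 22823536 to 22901556, the longest such gap at 78019 bp. OCT2, with 20 regions against 33 OCAB peaks, had no region between 22786296 and 23028915. Fewer regions leave longer gaps, and whether OCT2 was placed less evenly than OCAB was not tested.

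The highest OCAB peak of the locus lay in the region from 22777010 to 22777502, with a height of 113.4 tags per 10 M at 81.1-fold over input. The same region had an OCT2 height of 27.3, an IKAROS height of 24.4, an AIOLOS height of 16.2, an MTA2 height of 20.1 and an HDAC2 height of 15.6. Its OCAB percentile was 98.2 and its AIOLOS percentile 27.2, so this was among the highest OCAB sites of the cell line and among the lower AIOLOS sites. The next OCAB height, 107.7, was found from 23028915 to 23029250, with an OCT2 height of 27.8, an IKAROS height of 35.1, an AIOLOS height of 15.6 and an MTA2 height of 23.2. The third, 92.9, was found from 22723633 to 22724000, where OCT2 reached its highest value in the locus, 38.7, beside an IKAROS height of 83.4. That region was the only one above percentile 90 of both the OCAB and the IKAROS list.

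At 3 of the regions with high OCAB peaks no NuRD subunit was called. From 22516211 to 22516691 the OCAB height was 82.6, with heights of 14.7 for OCT2, 17.1 for IKAROS and 16.2 for AIOLOS. From 23089677 to 23090032 the OCAB height was 74.1, with 20.7 for OCT2, 18.8 for IKAROS and 16.2 for AIOLOS. MTA2 was present without HDAC2 from 23153984 to 23154368 (OCAB height 66.7, OCT2 15.8, MTA2 13.6) and from 22452883 to 22453306 (OCAB 62.1, OCT2 16.4, MTA2 10.9). From 22384974 to 22385448 both subunits were found, with an OCAB height of 58.1, an OCT2 height of 12.0, an MTA2 height of 21.5 and an HDAC2 height of 13.7. From 22901556 to 22901943, OCT2 was missing beside an OCAB height of 47.9. The region from 23010568 to 23010844, named here after its values were seen, is the last of the 3 without a NuRD subunit; its OCAB height was 54.7, with IKAROS and AIOLOS only. These 10 regions, all in the variable part, are those above percentile 90 of the OCAB list: 10 held IKAROS and AIOLOS, 8 OCT2, 7 MTA2, 2 HDAC2 and 0 Mi2. Of the 434 regions outside the locus above percentile 90 of the OCAB list, 74.9% held IKAROS, 70% AIOLOS, 69.1% OCT2, 61.1% MTA2, 44.2% HDAC2 and 16.1% Mi2. With 10 lambda regions, the interval of the difference left out 0 for AIOLOS (29.95 points, 1.90 to 34.4) and took in 0 for the other 5 proteins. The lambda regions of this kind had a median percentile of 62.3 for IKAROS, against 82.1 outside, and of 35.3 for AIOLOS, against 76.1 outside.

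All proteins but Mi2 were found at 6 regions of the variable part, and 4 of these had lower OCAB peaks than the regions above. From 22764540 to 22764876 IKAROS had a height of 151.8, AIOLOS 97.1, MTA2 49.9 and OCT2 34.4, while the OCAB height was 21.7. From 22748959 to 22749357 the OCAB height was 32.5, and from 23192001 to 23192392 it was 41.6, with IKAROS heights of 26.5 and 49.6. From 22555595 to 22555946 an OCAB height of 23.4 stood beside an IKAROS height of 53.9. The region from 22711705 to 22712163 was the only one of the variable part with all 7 proteins; its heights were 26.8 for OCAB, 16.9 for OCT2, 27.8 for IKAROS, 24.3 for AIOLOS, 22.8 for MTA2, 11.0 for HDAC2 and 11.9 for Mi2. From 22785949 to 22786296 OCT2 had its lowest height of the locus, 8.18, beside an OCAB height of 18.8. From 23161341 to 23161680 OCAB had a height of 35.3 and MTA2 one of 23.6 without OCT2, and from 22391602 to 22391965 an IKAROS height of 69.7 stood beside an MTA2 height of 25.4 without OCAB.

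Centres of OCAB and OCT2 peaks lay within 100 bp of each other in 17 of 17 shared lambda regions, against 81.9% of shared regions outside, with a median distance of 47 bp in the locus and 43 bp outside. OCAB and IKAROS centres lay a median of 55.5 bp apart in the locus and 72 bp outside. Which protein stood higher in its list differed between the locus and the pool of all regions outside it. OCAB had the higher percentile in 18 of 26 regions shared with IKAROS (69.2%), against 29.1% of such regions outside. It did so in 20 of 25 shared with AIOLOS (80.0%), against 31.9% outside, in 14 of 17 shared with OCT2 (82.4%), against 42.8%, and in 12 of 20 shared with MTA2 (60.0%), against 29.6%. These shares have no interval, and shared regions of the kappa and heavy chain loci were not compared in this way. Over all kappa peaks the median percentile was 75.5 for OCAB, 64.2 for OCT2, 37.5 for IKAROS, 25.9 for AIOLOS and 25.5 for MTA2. In the heavy chain locus these medians were 68.1, 53.2, 70.4, 64.7 and 72.5 in the same order. All 18 lambda regions with OCAB above IKAROS lay in the variable part, which had 24 shared regions. In the J and constant part of lambda, OCAB was lower in both of its shared regions.

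**Figure D4:**
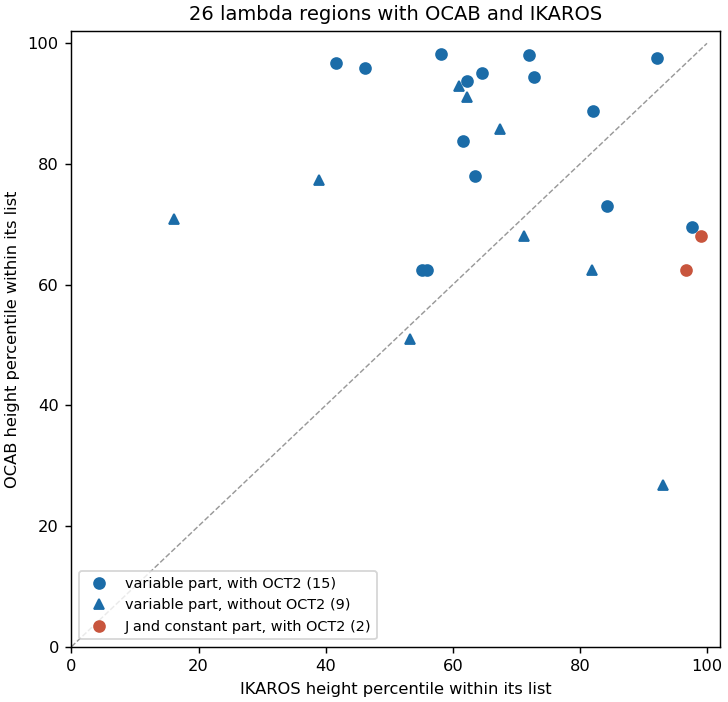
Each point is 1 of the 26 lambda regions with OCAB and IKAROS, by the IKAROS (x axis) and OCAB (y axis) height percentile within their lists; circles hold OCT2, triangles do not, blue is the variable part and red the J and constant part. On the dashed line both percentiles are equal; 18 points lie above it, and both red points lie below.

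How far heights ranked together differed by pair. Spearman's rho between IKAROS and AIOLOS height was 0.841 over 45 lambda regions, against 0.886 outside, and between IKAROS and MTA2 it was 0.718 over 40 regions, against 0.692 outside. It was lower in the locus for OCT2 and AIOLOS (0.206 over 19 regions, against 0.464 outside), for OCT2 and IKAROS (0.320 over 20, against 0.497) and for AIOLOS and HDAC2 (0.373 over 19, against 0.588). These values of rho, and those that follow, are descriptions over regions of the same libraries. They have no interval, and their differences from the values outside were not tested. Between OCAB and IKAROS height, rho was -0.169 over 26 lambda regions and 0.0923 outside. For OCAB and AIOLOS it was -0.379 over 25 lambda regions and 0.0650 outside, and for OCAB and MTA2 it was -0.421 over 20 lambda regions and 0.0976 outside. In lambda regions with OCAB the median MTA2 percentile was 73.01, against 42.5 in those without; outside the locus it was 79.2 with OCAB and 47.0 without. For AIOLOS it was 44.05 in lambda regions with OCAB and 35.3 in those without, against 78.6 and 48.8 outside. In 44 of the 45 shared lambda regions (97.8%) IKAROS had a higher percentile than AIOLOS, against 84.3% of such regions outside.

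High IKAROS peaks were looked at in the same way. The 8 lambda regions above percentile 90 of the IKAROS list all held AIOLOS and MTA2, 6 held OCT2, 6 HDAC2 and 5 OCAB, and 1 held Mi2. Of the 5357 regions outside the locus above that percentile, 97.5% held AIOLOS, 92.3% MTA2, 44.7% OCT2, 68.8% HDAC2, 18.6% OCAB and 28.7% Mi2. The interval of the difference left out 0 for OCAB (43.9 points, 11.9 to 67.7) and took in 0 for the other 5. The median MTA2 percentile was 86.8 in the 8 lambda regions and 86.0 outside. Besides those already described, in the variable part they were found from 22562241 to 22562683 (IKAROS height 94.5, AIOLOS 74.7, MTA2 32.0, HDAC2 22.9), from 23167718 to 23168040 (IKAROS 91.5, AIOLOS 77.8, MTA2 25.0, HDAC2 15.6), and from 22941679 to 22942089. The last had an IKAROS height of 89.0, an AIOLOS height of 97.1 and an MTA2 height of 28.9, with a low OCAB peak of 12.0. The first and second of these 3 held OCT2 without OCAB, as did 1 region of the J and constant part. The lowest of the 8, from 22511237 to 22511541, named after its values were seen, had an IKAROS height of 77.4 with AIOLOS and MTA2 alone.

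The J and constant part, 0.07 Mb long, held 12 regions, or 171 per Mb, against 88.8 per Mb in the variable part. Whether the stretch above the boundary also takes in the last variable genes and IGLL5 was not settled, as no annotation of hg19 was used here, so its values may not all belong to joining and constant segments. The count depended on the boundary, since 7 regions lay above a boundary set 20 kb higher. OCAB was present in 42.3% of variable regions and 25.0% of J and constant regions, a difference of 17.3 points whose interval, from -13.0 to 37.1, takes in 0. Its leading region, from 23229410 to 23230058, held all 7 proteins. There IKAROS had a height of 223.7, AIOLOS 168.7, MTA2 94.1 and HDAC2 44.0, each the highest of its protein in the locus. The Mi2 height was 24.9, the OCT2 height 28.9 and the OCAB height 21.1. Percentiles were 99.1 for IKAROS, 98.3 for AIOLOS, 99.2 for MTA2 and 98.9 for HDAC2, against 68.1 for OCAB. A second region from 23227151 to 23227507 held 6 proteins, with heights of 129.6 for IKAROS, 107.1 for AIOLOS, 54.3 for MTA2, 36.6 for HDAC2, 36.6 for OCT2 and 18.8 for OCAB. At these neighbouring regions the IKAROS, AIOLOS, MTA2 and HDAC2 peaks were thus near the top of their lists, and OCAB was not. OCT2 stood at percentile 88.45 in the leading region and 93.5 in the second. Mi2 was called in the leading region only, at percentile 90.25 by height and 6.60-fold over input.

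The other 10 regions of this part were lower. From 23207716 to 23208233 IKAROS had a height of 39.8, AIOLOS 29.9, MTA2 17.1, OCT2 13.6 and HDAC2 9.16. From 23213940 to 23214439 IKAROS had 23.5, AIOLOS 22.4, MTA2 22.3 and HDAC2 10.1, and from 23213423 to 23213689 OCAB stood alone with 17.1. From 23200325 to 23200661, just above the boundary, heights were 12.8 for IKAROS, 8.32 for MTA2 and 10.1 for HDAC2. The region from 23236740 to 23237134 had 22.2 for IKAROS, 16.2 for AIOLOS and 14.4 for MTA2. IKAROS with MTA2 was found from 23246061 to 23246359 (heights 11.1 and 6.13) and from 23256081 to 23256519 (23.1 and 16.2). IKAROS alone was found from 23219741 to 23220013 (19.2) and from 23252119 to 23252391 (16.7), and AIOLOS alone from 23259898 to 23260154 (13.7). Above 23230058 no OCAB, OCT2, HDAC2 or Mi2 peak was called in the window.

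NuRD subunits in the locus were mainly MTA2 and HDAC2. MTA2 heights ran from 6.13 to 94.1 with a median of 17.1, against 16.2 outside, and HDAC2 heights from 9.16 to 44.0 with a median of 13.3, against 14.7 outside. Both were found in 21 regions, with rho 0.621 between their heights, against 0.671 outside. No NuRD subunit was called in 31 of the 83 regions (37.3%, 27.7 to 48.1), against 46.7% outside. Mi2 had 4 peaks: the 2 in the regions with all 7 proteins, and 2 in regions of its own, named after their values were seen. The latter ran from 22391228 to 22391574 (height 29.2) and from 22613456 to 22613802 (height 22.7). They overlapped no other peak but lay close to regions with other NuRD subunits. A region with IKAROS, AIOLOS, MTA2 and HDAC2 began at 22391602, and one with IKAROS, MTA2 and HDAC2 ended at 22613268. In the regions where OCAB was alone its heights ran from 11.4 to 39.3.

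The window's edges fell among further peaks. Just inside its lower edge lay an OCAB peak from 22380214 to 22380480 with a height of 17.7, and just outside, from 22376819 to 22377137, a region of 5 proteins with an IKAROS height of 82.5. Beyond the upper edge, the next 20 kb held a Mi2 peak from 23270186 to 23270532 (height 24.3) and regions with IKAROS heights of 118, 69.7, 126.2 and 49.2, starting at 23270980, 23274034, 23277785 and 23284904. The third of these also held MTA2 (65.7), AIOLOS (103.3), HDAC2 (31.1) and OCT2 (18.0), and no OCAB peak was called in these 20 kb. In the left-out VPREB1 stretch, the region from 22598849 to 22599232 had heights of 369.5 for IKAROS, 334.3 for AIOLOS, 75.3 for MTA2, 67.6 for OCT2 and 27.9 for OCAB.

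The heavy chain locus (99 regions on chromosome 14, from 106033533 to 107286073) and the kappa light chain locus (44 regions on chromosome 2, from 89291715 to 90260459) were set beside the lambda locus. OCAB had 37.9 peaks per Mb in the lambda locus, 13.5 in the heavy chain locus and 14.2 in the kappa locus. These densities were taken over windows of 0.87, 1.26 and 1.13 Mb in the same order. The last 2 windows are wider than the spans of regions given above. As a share of regions, OCAB was found in 39.8% of lambda regions, against 17.2% in the heavy chain locus (22.6 points, 9.50 to 35.0) and 36.4% in the kappa locus (3.40 points, -14.4 to 19.9). MTA2 was found in 51.8% of lambda regions, against 45.5% in the heavy chain locus (6.35 points, -8.07 to 20.4) and 13.6% in the kappa locus (38.2 points, 21.4 to 50.9). HDAC2 followed, with 33.7% in lambda, 28.3% in heavy chain and 4.55% in kappa regions. OCT2 was found in 24.1%, 21.2% and 13.6% in the same order, and Mi2 in 4.82%, 12.1% and 2.27%. Regions with 3 or more proteins made up 53.0% of lambda and 46.5% of heavy chain regions (6.55 points, -7.89 to 20.6). In the kappa locus they made up 18.2% (34.8 points, 17.4 to 48.3). OCAB met MTA2 in 24.1% of lambda regions, against 5.05% of heavy chain regions (19.05 points, 8.97 to 29.7) and 6.82% of kappa regions (17.3 points, 3.39 to 28.4). Among OCAB regions, MTA2 was present in 20 of 33 in the lambda locus, against 5 of 17 in the heavy chain locus (31.2 points, 2.06 to 53.0) and 3 of 16 in the kappa locus (41.9 points, 12.3 to 60.9). The median OCAB height percentile was 77.4 in the lambda locus, 68.1 in the heavy chain locus and 75.5 in the kappa locus. For IKAROS it was 57.5 in the lambda, 70.4 in the heavy chain and 37.5 in the kappa locus. For AIOLOS it was 38.5, 64.7 and 25.9 in the same order. A high median for OCAB and a low one for AIOLOS were found in the kappa locus too. These medians are over all peaks of a locus and not over shared regions. In the kappa locus 6 of the 16 OCAB regions held AIOLOS. For HDAC2 the median percentile was 42.5 in the lambda locus and 84.4 in the heavy chain locus. The kappa locus had 2 HDAC2 peaks.

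**Figure D5:**
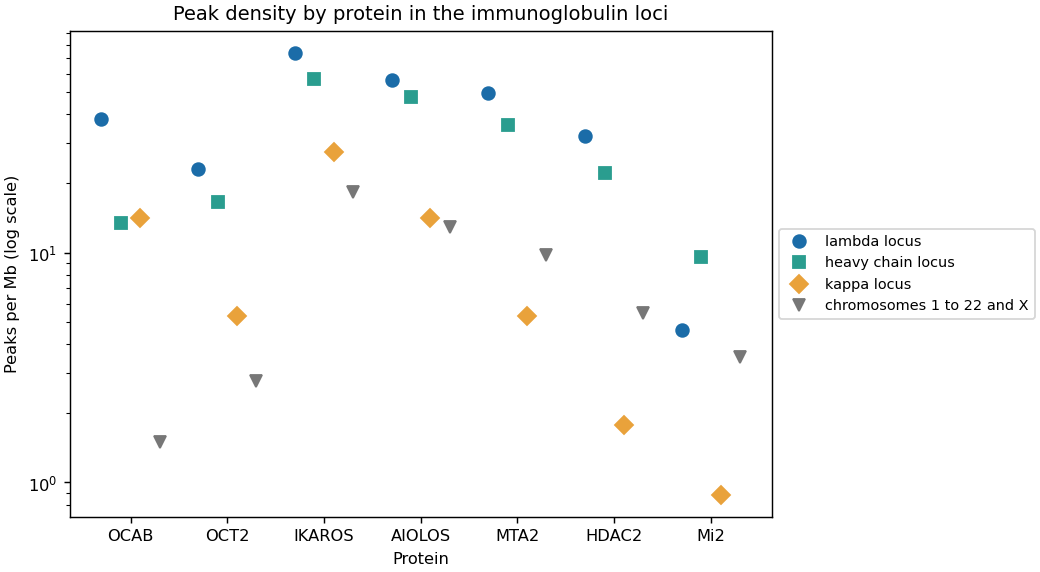
Peaks per Mb (y axis, log scale) of each protein (x axis) in the lambda, heavy chain and kappa loci and over chromosomes 1 to 22 and X. OCAB has 37.9 per Mb in the lambda locus, against 13.5 and 14.2 in the other immunoglobulin loci and 1.51 overall; MTA2, HDAC2 and Mi2 lie below the overall density in the kappa locus and above it in the lambda locus.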

How the data were processed

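ChIP-seq peak lists of 7 antibodies in 697 cells were used, 1 library each. HOMER 4.9.1 and Bowtie2 2.3.2.2, with CASAVA 1.8.2 or, for the HDAC2 library, 1.4, and the build hg19 are named in the submitters' processing notes. Per the file headers, HDAC2 peaks needed 4-fold over input and a p-value of 0.0001; not given in the sources used here were the limits of the other lists and the handling of reads that match several variable genes. Depth was between 10.9 M and 23.4 M tags. The deposited height is a signal in tags per 10 M; the deposited tag counts are whole for 5 lists. For IKAROS and MTA2 the authors scaled the tags to the input, and their depth was read from the step between low heights. The deposited input tags are a signal, the folds are ratios, and the deposited p-values are Poisson p-values. The fraction of centred tags and the score that the authors deposited were not used.

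Peaks overlapping by 1 bp were merged over the genome, with code tested on simulated peaks. Shares have 95% Wilson intervals, differences Newcombe intervals, and medians binomial intervals, which cover counting error only. The members, lists and tests were chosen with earlier results of these data known. By rule, every J and constant region was named, and of the variable regions with 3 or more lists the 20 with most lists (39 qualified). Alternatives were an 8-fold minimum, a p-value limit of 1e-10, the 2000 highest peaks, centres within 100 bp, a shifted boundary and a chromosome 22 background. No genome of hg19 and no promoter sequence of an IGL gene was used here (0 of 88 genes matched). Python 3.11.15, numpy 2.4.6, pandas 2.3.3, scipy 1.17.1 and matplotlib 3.10.9 were used.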

Additional observations from a re-analysis of the deposited data

How the results depend on the processing

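Under the alternatives, 59 recomputed values moved by less than their interval or 1.5 times, 14 moved by more, and none changed sign. With at least 8-fold over input, 13 OCT2, 11 HDAC2 and 2 Mi2 peaks were left. With a p-value limit of 1e-10, HDAC2 kept 9 peaks and its share stood 1.64 points above that outside. With the 2000 highest peaks per list, 7 OCT2, 3 IKAROS, 2 AIOLOS, 3 MTA2 and 2 HDAC2 peaks were left, fewer by construction for long lists. The boundary set 20 kb higher left 7 regions in the J and constant part. Ranked by fold over input, the median percentile was 43.7 for OCT2 and 50.95 for Mi2, which has 4 peaks; the cause was not tested. Region density was 1.93 times that of the rest of chromosome 22. The OCAB share stood between 28.9 and 34.5 points above that outside in all 4 alternatives. No paired analysis was possible because each antibody has 1 library. The part of depth in the length of the lists was not tested; the shallowest library, HDAC2, has 16125 peaks, against 4440 for OCAB at 17.55 M tags. For HDAC2 the highest p-value of a lambda peak was 2.94e-05, against at most 3.46e-10 in the other lists.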
